A study of Saccharomyces cerevisiae with 164 samples.

Results

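The comparison described here sets 3 3′-end RNA-seq libraries of a budding yeast strain with the K56R substitution in one engineered histone H3 (K56R H3X, replicates 3 to 5) against 3 libraries of a strain with K56R in the other (K56R H3Y, replicates 3 to 5). These 6 libraries, of 164 in the series and 33 in sequencing batch 11, were chosen by their labels. RNA from chromosome III was raised across its length in K56R H3X, so the genes of interest are those on the other chromosomes. Of 5013 transcript features, 4892 lay off chromosome III by the files' own chromosome column. A filter on low counts removed 51 of them, leaving the tested genes, and kept 120 of the 121 on chromosome III.

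All strains were Saccharomyces cerevisiae, mating type a, with deletions of the chromosomal gene pairs for H3 and H4 (HHT1-HHF1 and HHT2-HHF2) and the alleles leu2-3 and leu2-112 (combined), ura3-62, trp1 and his3+. Their H3 came from plasmids with a centromere. The TRP1 plasmid carried H3X (hht2 with L127A and L131V), and the LEU2 plasmid H3Y (hht2 with L110I, A111W and L131I). The labels of the K56R strains name HHF1 on the LEU2 plasmid, and those of the pseudo-wild-type HHF2. In K56R H3X the TRP1 plasmid had K56R and H3Y had lysine 56, in K56R H3Y it was the reverse, in the symmetric K56R strain (3 libraries) both H3 had it, and in the pseudo-wild-type (6 libraries of the same batch) neither did. The batch also held strains with K14R or K18R in H3X or in H3Y, 3 libraries each. Mid-log cultures in YEPD, a rich medium, were used. The file names give 1 strain number for all libraries of each group, in both assays, so each group is treated as 1 strain. The labels do not say that replicates were separate cultures, and the p-values measure the spread between these libraries. K56R in H3X, the raised chromosome III and anything else particular to that isolate cannot be told apart.

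The engineered interface makes a nucleosome take 1 H3X and 1 H3Y, so that each asymmetric strain has K56R on a single H3 of the pair. Lysine 56 lies where the nucleosomal DNA enters and leaves. Its acetylation by Rtt109, with the chaperone Asf1, marks newly made H3 during replication and at promoters where nucleosomes are exchanged, and arginine cannot be acetylated there. Many yeast proteins act in complexes or pathways whose parts are encoded on several chromosomes, and the mating pathway is one that draws on genes on and off chromosome III. The stretch of the reference HHT2 gene around the codon is shown so that the changed residue can be seen, with the lysine codon in capitals (R64, minus strand, chrXIV:575868-575894).
HHT2: agaagattccaaAAAtctactgaactg

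Total counts ran from 2869266 to 3200541 in K56R H3X and from 2577545 to 2676289 in K56R H3Y. HHT1 and HHF1 had 0 counts in all 6 libraries, where 3 counts would be at most 1.16 CPM, the counts scaled to a common library total. For HHF1 this goes against the labels of the K56R strains, which place HHF1 on the LEU2 plasmid, and H4 reads were assigned to HHF2. HHT2 does not separate the strains, since both carry it on plasmids. Normalised with TMM, a scaling that uses the bulk of the genes, it had 3849, 2662 and 4233 CPM in K56R H3X and 3473, 3602 and 4291 CPM in K56R H3Y. As markers of mating type, the a-specific genes were present in every library, and the α-specific genes STE3 and SAG1, at 38.03 to 60.4 CPM in the 6 libraries, and MF(ALPHA)1, at 1.12 to 2.81 CPM, did not differ between the strains at an adjusted p under 0.05 (0.907, 0.911 and 0.913, edgeR). STE3 and SAG1 were not absent, and their levels reached or passed those of the a-specific MFA1, AGA2 and AXL1. These markers alone therefore do not settle the mating type, which is taken from the labels.

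Chromosome III took 3.14% to 3.17% of counts in K56R H3X, 1.69% to 1.70% in K56R H3Y and 1.602% to 1.73% in the pseudo-wild-type. The median log2 fold change of its 120 tested genes, H3X over H3Y, was 0.89, a 1.85-fold ratio, and all 120 were above 0. At an adjusted p under 0.05 (edgeR's quasi-likelihood test on all 33 libraries of the batch, Benjamini-Hochberg adjustment over 4961 genes), the rule for a call throughout, 99 of the 120 were called, or 82.5%. The medians of the 15 other chromosomes lay between -0.04 and 0.01. Over 3807 windows of 25 neighbouring genes on those chromosomes the median ran from -0.15 to 0.13, and over the 91 windows on chromosome III from 0.77 to 0.92. No stretch off chromosome III of that size came near its level. The full-length libraries of the same strains, 2 of each, gave a median of 1.14 for chromosome III, or 2.20-fold.

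**Figure D1:**
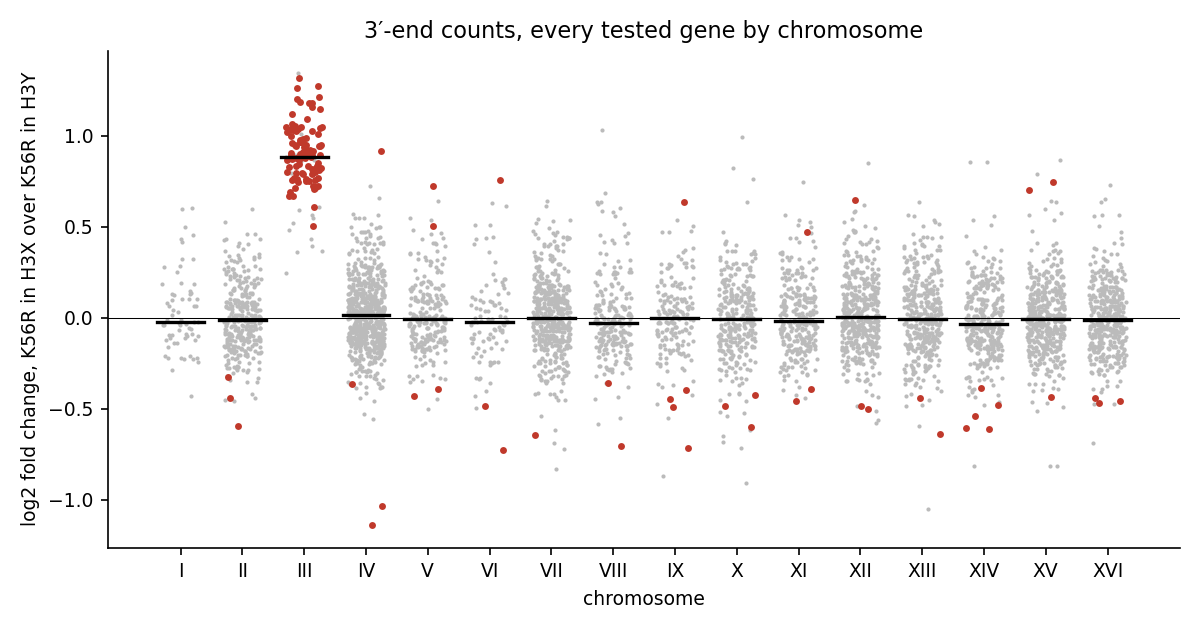
Log2 fold change of every tested gene in the 3′-end libraries, K56R H3X over K56R H3Y, by chromosome, with the median as a black bar and genes at an adjusted p under 0.05 in red. Chromosome III sits near 0.89 and every other chromosome near 0, with 44 red points scattered over them.

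Off chromosome III, 44 of the tested genes were called between the strains, or 0.909%: 35 lower in K56R H3X (0.723%) and 9 higher (0.186%). The lower genes with the largest changes were MFA1, an a-factor gene, ATO3, a plasma membrane protein, and STE2, the α-factor receptor. The higher genes with the largest changes were SNF3, a glucose sensor, and GSY1, a glycogen synthase. Among the 35 the log2 fold changes ran from -1.14 to -0.32 with a median of -0.48, and among the 9 from 0.47 to 0.92 with a median of 0.71. In 42 of the 44 the 3 libraries of one strain lay beyond the 3 of the other, which held for 15.3% of all tested genes off chromosome III. The calls were made with these same libraries, so the separation largely follows from the call and is a description.

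The 44 calls rest in part on chromosome III. Its 99 genes enter the same adjustment and relax the threshold for the rest: with the adjustment made over genes off chromosome III alone, 13 were called (0.269%), 11 lower (0.227%) and 2 higher (0.0413%). At an unadjusted p under 0.05 there were 436, or 9.01%. The called gene nearest the threshold was MFA2 with an adjusted p of 0.0492, and the first gene beyond it was MRPL3, for a mitochondrial ribosomal protein, at 0.0519 with a log2 fold change of -0.39. The count was 15 without H3X replicate 3, 24 without H3Y replicate 4 and between 32 and 39 without any other of the 6 libraries. With the replicate number as a block the count was 50 in all 33 libraries and 109 in the 6 alone, where 66 were higher and 43 lower. Deviations of same-numbered libraries correlated, but H3X replicate 4 did so more with H3Y replicate 3 (0.242) than with H3Y replicate 4 (0.185). The pairing by number was therefore clear only for replicate 5, and the block counts rest on that pairing. Of 34 called genes named by rule, 8 stayed called in each of 16 alternative treatments of the data: PHO3, VHT1, PCL5, STE2, IRC7, SVS1, GSY1 and IZH4.

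The a-specific genes encode what an a cell needs to signal to and mate with an α cell: the a-factor precursors MFA1 and MFA2, the α-factor receptor STE2, the protease BAR1 that degrades α-factor, the a-factor exporter STE6, the processing protease AXL1 and the agglutinin subunit AGA2. Of these 7, all off chromosome III, 4 were called lower in K56R H3X and 0 higher, beside 0.723% and 0.186% of all tested genes off chromosome III. AXL1 is in the list although haploid cells of both mating types express it. The 7 had a median log2 fold change of -0.61, beside -0.01 for all genes off chromosome III.

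MFA1 had 13.3, 25.5 and 12.8 CPM in K56R H3X and 39.1, 32.5 and 41.0 CPM in K56R H3Y, a log2 fold change of -1.14 ± 0.22 (SE, adjusted p 0.00104, edgeR). STE2 had 102.4, 170.0 and 121.1 CPM against 201.1, 221.1 and 229.0 CPM, a log2 fold change of -0.73 ± 0.14 (adjusted p 0.00098, edgeR). BAR1 had 185.6, 377.3 and 218.8 CPM against 458.3, 432.7 and 390.1 CPM, a log2 fold change of -0.71 ± 0.16 (adjusted p 0.00653, edgeR). In these 3 genes the strains did not overlap, and H3X replicate 4 was the highest of its strain each time. MFA2 had 107.5, 186.5 and 111.1 CPM against 213.2, 220.4 and 181.6 CPM, a log2 fold change of -0.61 ± 0.17 (adjusted p 0.0492, edgeR), and here H3X replicate 4 passed the lowest H3Y library. Without that library 5 of the 7 were called, AGA2 among them, and the BAR1 value became -1.07; without H3X replicate 3 or replicate 5, 2 were.

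The remaining members did not pass. STE6 had 98.3, 137.6 and 90.5 CPM in K56R H3X and 164.5, 142.4 and 122.3 CPM in K56R H3Y (-0.40 ± 0.18 on the log2 scale, adjusted p 0.393, edgeR). AGA2 had 26.8, 44.97 and 26.2 CPM against 43.7, 40.2 and 46.6 CPM (-0.42 ± 0.19, adjusted p 0.368, edgeR). AXL1 lay near 20 CPM in both strains, at 0.03 ± 0.19 on the log2 scale (adjusted p 0.981, edgeR). The features counted do not all span their genes: that of BAR1 begins inside its coding sequence and that of MFA1 ends before the stop codon, so these values are of the part counted.

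**Figure D2:**
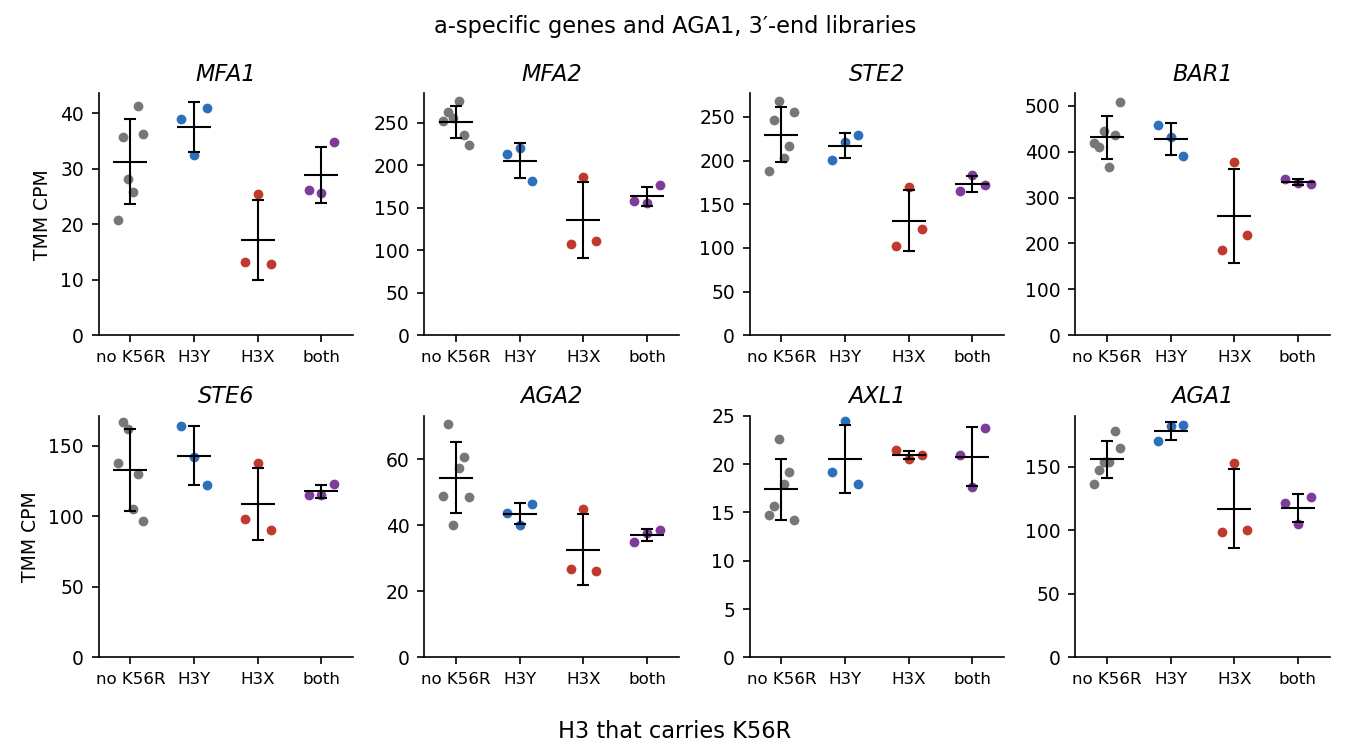
TMM CPM of the 7 a-specific genes and AGA1 in every 3′-end library of the pseudo-wild-type (no K56R, n = 6) and of the strains with K56R in H3Y, in H3X or in both (n = 3 each), with the mean and SD. In MFA1, STE2 and BAR1 the 3 H3X libraries lie below all 3 H3Y libraries, and H3X replicate 4, the middle red point, lies nearest to them.

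Against the pseudo-wild-type, the a-specific genes of the strains stood differently. STE2 ran from 188.5 to 268.1 CPM in the 6 pseudo-wild-type libraries, with a median of 231.5, above all 3 libraries of K56R H3X and around those of K56R H3Y. Its log2 fold change was -0.81 (adjusted p 2.61e-05, edgeR) in K56R H3X and -0.08 (adjusted p 0.708, edgeR) in K56R H3Y. The 7 genes had a median of -0.73 in K56R H3X and -0.01 in K56R H3Y. The symmetric strain, without raised chromosome III, lay between for STE2, with a mean of 173.3 CPM and a log2 fold change of -0.41 (adjusted p 0.0192, edgeR).

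The upstream sequences of the a-factor genes MFA1 and MFA2 are shown because both were called lower in the 3′-end libraries. MFA2 was the call nearest the threshold, and neither gene was called in the full-length libraries. Shown are 300 bases up to the first base of the counted feature (R64, plus strand, at chrIV:1384821-1385120 and chrXIV:352090-352389). Capitals mark matches on either strand to TGAAACA, the element bound by the pheromone-response factor Ste12, and to CATGTAA, part of the site bound by the repressor α2.
MFA1: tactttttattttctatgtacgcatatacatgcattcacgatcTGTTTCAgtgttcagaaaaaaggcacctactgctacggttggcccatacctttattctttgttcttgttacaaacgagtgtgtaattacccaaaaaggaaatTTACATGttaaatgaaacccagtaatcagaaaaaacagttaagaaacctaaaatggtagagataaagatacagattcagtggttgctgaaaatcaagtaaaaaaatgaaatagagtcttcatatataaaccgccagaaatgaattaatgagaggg
MFA2: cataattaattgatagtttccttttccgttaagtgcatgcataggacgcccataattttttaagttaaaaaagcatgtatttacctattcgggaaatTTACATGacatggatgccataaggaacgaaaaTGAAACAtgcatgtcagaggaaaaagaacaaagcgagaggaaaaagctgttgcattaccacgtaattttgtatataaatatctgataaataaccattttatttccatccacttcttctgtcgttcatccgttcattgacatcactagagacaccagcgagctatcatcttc
MFA1 has TGAAACA from 257 to 251 bases before the feature and CATGTAA from 155 to 149, and MFA2 has them from 171 to 165 and from 203 to 197. TGAAACA was in 6.92% and CATGTAA in 4.31% of 4521 such promoters, and the matches do not overlap. Among 31 called lower genes with a readable promoter, 7 held TGAAACA and 3 held CATGTAA. The other motifs were searched on both strands and are given with their share of all promoters. CCTAATT, of Mcm1, was in 2 of the 31 and 4.42% of all. TGACTCA, of Gcn4, was in 1 and 2.85%. The E box CACGTG was in 0 and 4.49%. The stress element AAGGGG was in 3 and 10.5%. The forkhead motif TAAACAA was in 3 and 12.3%.

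Beyond the a-specific genes, 2 of 20 pheromone response genes were called lower, beside 0.723% of all genes, and 0 higher, with a median of -0.18. AGA1, which anchors the adhesive subunit Aga2 of a-agglutinin to the cell wall, had 98.6, 152.8 and 100.2 CPM in K56R H3X and 170.5, 181.9 and 183.1 CPM in K56R H3Y. The strains did not overlap, and the log2 fold change was -0.61 ± 0.13 (adjusted p 0.00358, edgeR). PRM5, a pheromone-regulated membrane protein, was at -0.40 ± 0.09 (adjusted p 0.00806, edgeR), and the other 18 did not pass. Of 8 haploid-specific genes 0 were called; STE12 was at -0.38 ± 0.15 (adjusted p 0.291, edgeR). Some mating genes lie on chromosome III itself. KAR4, a factor for karyogamy genes, rose by 0.76 ± 0.14, and STE50, an adaptor of the kinase Ste11, rose by 0.83 ± 0.11 (adjusted p 0.000487 and 3.61e-06, edgeR). All 120 tested genes of chromosome III were above 0, with a median of 0.89, so the rise of these 2 does not set them apart from their chromosome. FUS1, a cell fusion gene on chromosome III counted only in the full-length table, had 98 and 422 counts in K56R H3X and 73 and 356 in K56R H3Y, a log2 fold change of 0.09 ± 0.25 (adjusted p 0.896, edgeR), below that chromosome's full-length median of 1.14.

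The strains are labelled mating type a, and the mating-type cassettes are on chromosome III; only the full-length table counts them. HMRA1 had 136 and 964 counts in full-length K56R H3X and 36 and 455 in K56R H3Y, a log2 fold change of 1.22 ± 0.69 (adjusted p 0.523, edgeR). MATALPHA2 had 54 and 150 counts against 19 and 92 (0.84 ± 0.44, adjusted p 0.507, edgeR). The cassettes share sequence with each other, so these counts do not say which copy was read, and MATALPHA1 and HMLALPHA1, identical to each other, had 0 or 1 count in each of the 4 libraries.

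Other lower calls were of single genes from several lists. ATO3, a plasma membrane protein for ammonium export, had 15.7, 13.6 and 21.5 CPM in K56R H3X and 28.4, 30.8 and 45.1 CPM in K56R H3Y, a log2 fold change of -1.03 ± 0.21 (adjusted p 0.00215, edgeR). VHT1, the biotin transporter, had 65.0, 68.1 and 70.2 CPM against 102.0, 105.7 and 109.7 CPM, a log2 fold change of -0.64 ± 0.12 (adjusted p 0.000572, edgeR). The gap between the strains in VHT1 was wider than the range within either. It was the 1 called gene of 5 biotin genes, and ATO3 was the 1 called gene of 26 ammonium, acetate and nitrogen catabolite genes. Over all tested genes off chromosome III 0.723% were called lower. The medians of the biotin and nitrogen lists were -0.03 and 0.02.

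PHO3, a secreted acid phosphatase, had the smallest p off chromosome III. It had 1357, 1493 and 1447 CPM in K56R H3X and 2056, 2331 and 2105 CPM in K56R H3Y, a log2 fold change of -0.60 ± 0.09 (adjusted p 2.72e-05, edgeR). All 6 lay below the pseudo-wild-type, whose libraries ran from 2422 to 2774 CPM. PHO3 shares long stretches with its neighbour PHO5, and reads between them could be split, so the value is uncertain. Of 15 phosphate starvation genes 0 were called, beside 0.909% of all tested genes off chromosome III. RPS14B, a ribosomal protein gene with a near-identical copy in RPS14A, is uncertain for the same reason. RPS14A lies on chromosome III, and whether the raised chromosome bears on the RPS14B value was not tested. RPS14B was the 1 called of 129 ribosomal protein genes, at -0.60 ± 0.14 (adjusted p 0.00998, edgeR), while the list's median was -0.06.

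PCL5, the cyclin that directs Pho85 to the activator Gcn4, had 480.9, 524.4 and 392.1 CPM in K56R H3X and 694.2, 651.4 and 935.0 CPM in K56R H3Y, with no overlap. The log2 fold change was -0.71 ± 0.14 (adjusted p 0.00098, edgeR). Of 46 genes for amino acid synthesis that Gcn4 activates, 0 were called, beside 0.909% of all tested genes off chromosome III, with a median of -0.09. SHM2, the cytosolic serine hydroxymethyltransferase, was at -0.49 ± 0.12 (adjusted p 0.0128, edgeR), the 1 called of 20 genes for one-carbon, glycine and purine synthesis. IRC7, a cysteine desulfhydrase, was at -0.48 ± 0.10 (adjusted p 0.00166, edgeR), and 0 of 19 sulfur assimilation genes were called. CAB2, of coenzyme A synthesis, was at -0.45 ± 0.12 (adjusted p 0.0425, edgeR).

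FRE1, a ferric reductase, was the 1 called gene of 19 in the iron regulon, at 153.9, 171.6 and 165.1 CPM in K56R H3X against 230.6, 247.0 and 216.7 CPM. Its log2 fold change was -0.50 ± 0.14 (adjusted p 0.0362, edgeR). The pseudo-wild-type ran from 148.5 to 251.8 CPM and so spanned both strains. Of the 19, 17 were below 0, with a median of -0.22, and none of the other 18 passed. Over all tested genes off chromosome III 0.723% were called lower.

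Of 31 cell wall genes, 6 were called lower in K56R H3X and 0 higher: YGP1, PIR1, UTR2, SUN4, PST1 and DSE2. The list's median was -0.24, with 26 of 31 members below 0. In 18 of the 31 the strains did not overlap, beside 15.3% of all tested genes off chromosome III, and 0.723% of all were called lower. YGP1, a secreted glycoprotein, had 988.3, 1213 and 914.1 CPM in K56R H3X and 1344, 1631 and 1551 CPM in K56R H3Y, a log2 fold change of -0.54 ± 0.13 (adjusted p 0.0091, edgeR). PIR1, a glycoprotein bound to wall glucan, was at -0.46 ± 0.13, with H3Y replicate 5 far above the others of its strain at 1393 CPM against 924.4 and 849.0 CPM. Without that library the PIR1 value was -0.21. The other 4 lay between -0.39 and -0.36: the chitin transglycosylase UTR2, the septation protein SUN4, the anchored wall protein PST1 and DSE2, which daughter cells express. The count of called cell wall genes was 0 without H3X replicate 3, in the 6 libraries fitted alone or with the adjustment made off chromosome III, between 2 and 4 without any other library, and 3 with the scaling taken from genes off chromosome III.

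Called genes of the wall and cell surface outside that list were TOS1 and TOS6, both for wall proteins, SVS1, and TOH1. SVS1 had 421.8, 465.6 and 470.1 CPM in K56R H3X and 604.0, 622.4 and 636.3 CPM in K56R H3Y, a log2 fold change of -0.46 ± 0.10 (adjusted p 0.00284, edgeR). All 6 lay below the lowest pseudo-wild-type library, at 660.7 CPM. TOS6 was at -0.48 ± 0.13 and TOH1 at -0.49 ± 0.14, the latter with overlap of the strains. AMN1, a daughter-cell protein that acts against mitotic exit and in cell separation, was the smallest called change at -0.32 ± 0.08 (adjusted p 0.0154, edgeR). The other called lower genes were UPA2, NCE102, YHM2, TUF1, FCY2, MRX12, MAE1 and a pair without a standard symbol, YIL102C-A and YPL088W, at -0.64 to -0.39. On chromosome X most features of the deposited annotation lie to the right of the R64 gene of that name. That of MRX12 misses part of its gene, while those of RPS14B and TOH1 span theirs.

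Of the 9 genes higher in K56R H3X, GSY1 had 106.2, 107.5 and 103.3 CPM against 51.5, 66.8 and 69.0 CPM in K56R H3Y, a log2 fold change of 0.76 ± 0.16 (adjusted p 0.00251, edgeR). GLC3, the glycogen branching enzyme, was at 0.51 ± 0.14 (adjusted p 0.0414, edgeR). These 2 were the genes called higher among 48 that general stress induces, YGP1 was called lower, and the list's median was 0.07. Over all tested genes off chromosome III 0.186% were called higher and 0.723% lower. For GSY1 and GLC3 the libraries did not overlap between the strains, and the pseudo-wild-type, at 53.4 to 78.4 CPM for GSY1, lay with K56R H3Y.

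IZH4, a membrane protein linked to zinc homeostasis, had 48.2, 60.2 and 48.1 CPM in K56R H3X and 27.7, 32.9 and 32.5 CPM in K56R H3Y, a log2 fold change of 0.75 ± 0.16 (adjusted p 0.00447, edgeR). BNA5, the kynureninase of NAD synthesis, had 66.9, 75.1 and 81.2 CPM against 41.2, 46.5 and 54.4 CPM, a log2 fold change of 0.65 ± 0.16 (adjusted p 0.0109, edgeR). SNF3 had 16.2, 11.2 and 13.1 CPM against 7.11, 5.60 and 8.95 CPM, a log2 fold change of 0.92 ± 0.22 (adjusted p 0.0119, edgeR). In all 3 genes the strains were apart, though SNF3 lies at few counts. RAD4, a damage sensor of nucleotide excision repair, was at 0.73 ± 0.20 (adjusted p 0.0331, edgeR). The rest were PTH4, RPI1 and HFL1, at 0.71, 0.64 and 0.47.

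The listed partners and targets of several chromosome III proteins were examined next. On chromosome III, TUP1, the corepressor that acts with Cyc8, had 505.8, 536.3 and 552.3 CPM in K56R H3X and 281.0, 252.6 and 295.8 CPM in K56R H3Y, and rose by 0.94 ± 0.10 (adjusted p 2.24e-07, edgeR). Its partner CYC8, off chromosome III, was at -0.04. Of 18 genes repressed through these 2, 0 were called, beside 0.909% of all tested genes off chromosome III, and the median was 0.08. The invertase SUC2 was at 0.38 (adjusted p 0.176, edgeR). HCM1, a forkhead activator of S-phase genes on chromosome III, rose by 0.69 ± 0.14 (adjusted p 0.000992, edgeR). Of its 23 target genes off the chromosome, 0 were called and the median was 0.09, with 17 above 0. In the full-length libraries their median was -0.32, with 15 of the 23 below 0. At a share of 0.909%, lists of 18 or 23 genes hold few calls or none.

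Subunits of complexes encoded on chromosome III rose while their partners elsewhere did not pass. SNT1, of the Set3 deacetylase complex, rose by 0.93 ± 0.17, RSC6, of the RSC remodeller, by 0.71 ± 0.11, TAF2, of TFIID, by 1.02 ± 0.28 and MRC1, of the replication checkpoint, by 1.32 ± 0.30 (adjusted p 0.000572, 9.05e-05, 0.0356 and 0.00576, edgeR). In the full-length libraries MRC1 was at 0.04 ± 0.52. The partners encoded elsewhere gave SET3 0.23, HOS2 0.23 and SIF2 0.06, RSC8 -0.21, STH1 0.30 and SFH1 -0.04, TAF1 0.33, TAF4 -0.28 and TAF12 0.02, and TOF1 0.14 and CSM3 0.41. In all, 0 of 55 such partners were called in either direction, with a median of -0.01 and a range of -0.34 to 0.61. Over all tested genes off chromosome III 0.909% were called. At that share any list of this size holds few calls or none, so the 0 does not set the partners apart. YIH1, an inhibitor of Gcn2 activation on chromosome III, was at 0.59 ± 0.18 (adjusted p 0.0781, edgeR), and CIT2, the peroxisomal citrate synthase there, at 0.25 ± 0.22 (adjusted p 0.786, edgeR), both among the 21 chromosome III genes not called. LEU2, which the H3Y plasmid also carries, was at 0.52.

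**Figure D3:**
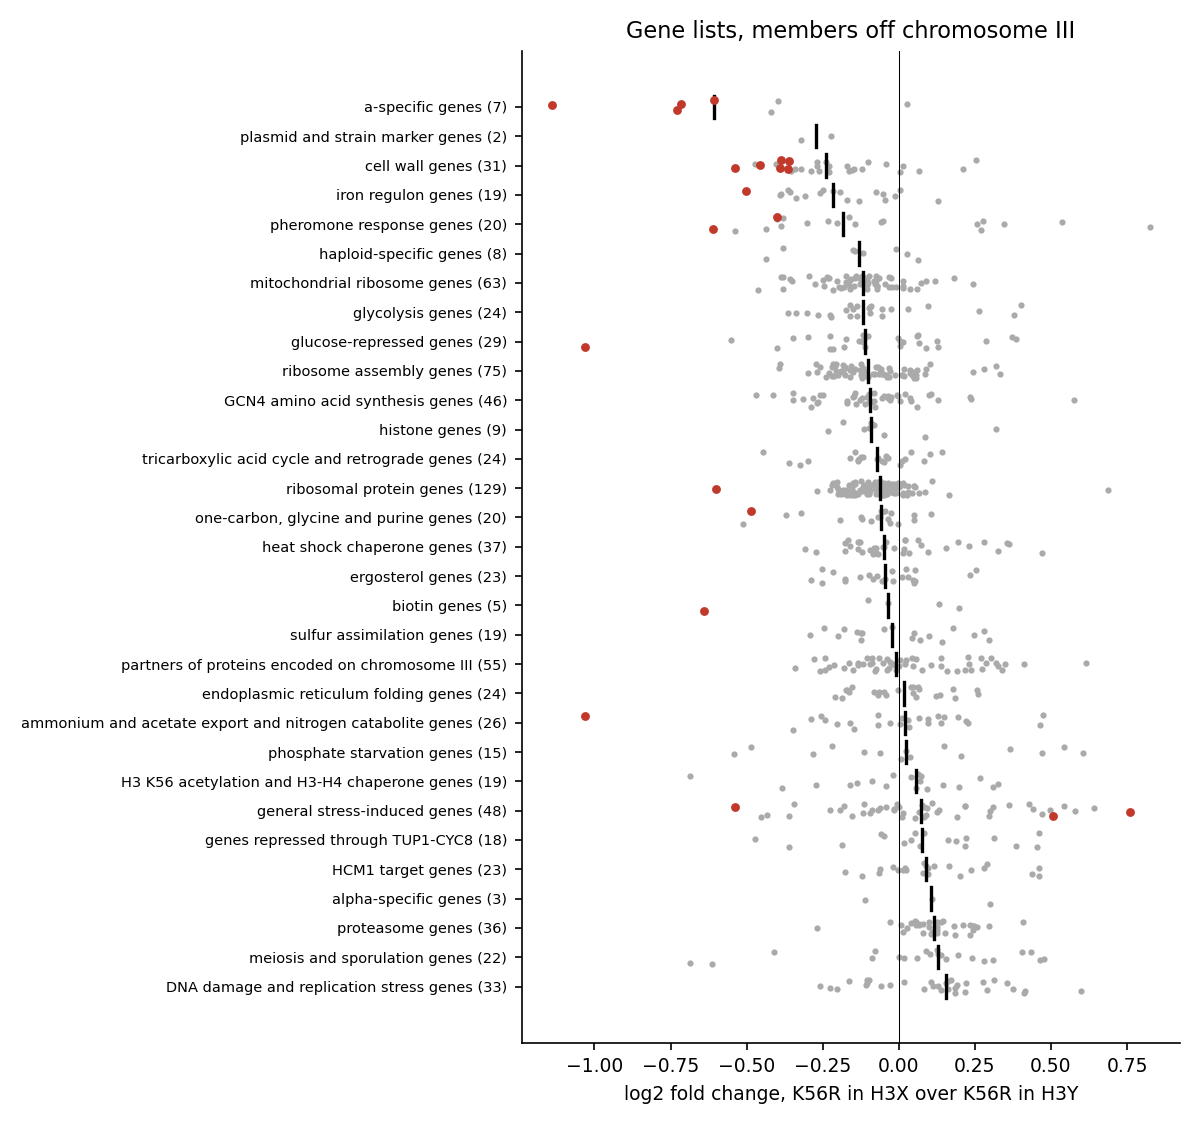
Log2 fold change, K56R H3X over K56R H3Y, of the members of each gene list off chromosome III, with the number of members in brackets, the list's median as a black bar and genes at an adjusted p under 0.05 in red. The a-specific genes have the lowest median, -0.61, and the partners of proteins encoded on chromosome III centre on -0.01 with no red point.

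Apart from glucose-repressed genes, the other lists held 0 called genes, beside 0.909% of all tested genes off chromosome III. Of 36 proteasome genes, 34 were above 0 with a median of 0.12, and of 63 mitochondrial ribosome genes 53 were below 0 with a median of -0.12. Of 75 ribosome assembly genes 54 were below 0 with a median of -0.10, and of 33 DNA damage and replication stress genes 23 were above 0 with a median of 0.15. The 19 genes for H3 K56 acetylation and H3-H4 chaperones had a median of 0.06. Glycolysis (24 genes), the citric acid cycle (24), ergosterol synthesis (23), heat shock chaperones (37), protein folding in the endoplasmic reticulum (24) and meiosis (22) had medians of -0.12, -0.07, -0.05, -0.05, 0.02 and 0.13. The only call among 29 glucose-repressed genes was ATO3. Over all tested genes off chromosome III, 2325 were above 0 and 2516 below.

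The 9 histone genes off chromosome III had 0 calls, beside 0.909% of all tested genes off that chromosome. They lay between -0.23 and 0.32, with a median of -0.09. HHF2 had 10434, 8069 and 10692 CPM in K56R H3X and 8789, 10998 and 10420 CPM in K56R H3Y. HTA1 was at -0.23, HTB1 at -0.10, HTA2 at -0.18, HTB2 at -0.11, HHO1 at 0.09, HTZ1 at -0.09 and CSE4 at 0.32, with SE of 0.10 to 0.24. TRP1, the marker of the H3X plasmid, was at -0.22 ± 0.17 and URA3 at -0.32 ± 0.23. None of them passed the test.

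The 2 strains stood at unequal distance from the pseudo-wild-type. Off chromosome III, 1068 genes were called in K56R H3X (22.1%), 553 higher (11.4%) and 515 lower (10.6%), and 43 in K56R H3Y (0.888%), 20 higher (0.413%) and 23 lower (0.475%). The symmetric strain had 1165 (24.1%). These comparisons share the pseudo-wild-type libraries, and their counts do not test the difference between the strains, which the 44 calls do. The count in K56R H3Y depended on single libraries: without replicate 5 there were 315, and without replicate 3 or replicate 4 there were 1 and 2. At an unadjusted p under 0.05 there were 1782 in K56R H3X and 1002 in K56R H3Y, and the log2 fold changes off chromosome III had SDs of 0.35 and 0.26. In K56R H3X the count was 398 without replicate 3 and 703 without replicate 4. Replicate 5 of K56R H3Y differed from the others of its strain with an SD of 0.36 (log2) over genes, beside 0.19 to 0.25 for the other 5 libraries. Its level also fell with coding length, by 0.11 (log2) per doubling, where the other 2 rose by 0.08 and 0.06.

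Of the 35 genes lower in K56R H3X than in K56R H3Y, 34 were also called below the pseudo-wild-type in K56R H3X, and 0 were called in K56R H3Y. The genes were chosen with the same K56R libraries, so these counts are a description. The exception was FRE1, at -0.18 and 0.32. Their median log2 fold change over the pseudo-wild-type was -0.58 in K56R H3X, -0.07 in K56R H3Y and -0.27 in the symmetric strain. Of the 9 higher genes 8 were called above the pseudo-wild-type in K56R H3X, HFL1 being the exception, and 0 in K56R H3Y, with medians of 0.65, -0.11 and 0.18. PHO3 was at -0.84 in K56R H3X, -0.25 in K56R H3Y and -0.74 in the symmetric strain. RPS14B was at -0.68, -0.08 and -0.03, and NCE102 at -0.47, -0.03 and 0.04, so these 2 were near the pseudo-wild-type level in the symmetric strain. RPS14B lies on chromosome X, whose genes stood 0.13 to 0.17 (log2) above the batch median in the 3 symmetric libraries and -0.02 to 0.05 in the pseudo-wild-type; the part of this in the RPS14B value was not tested.

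**Figure D4:**
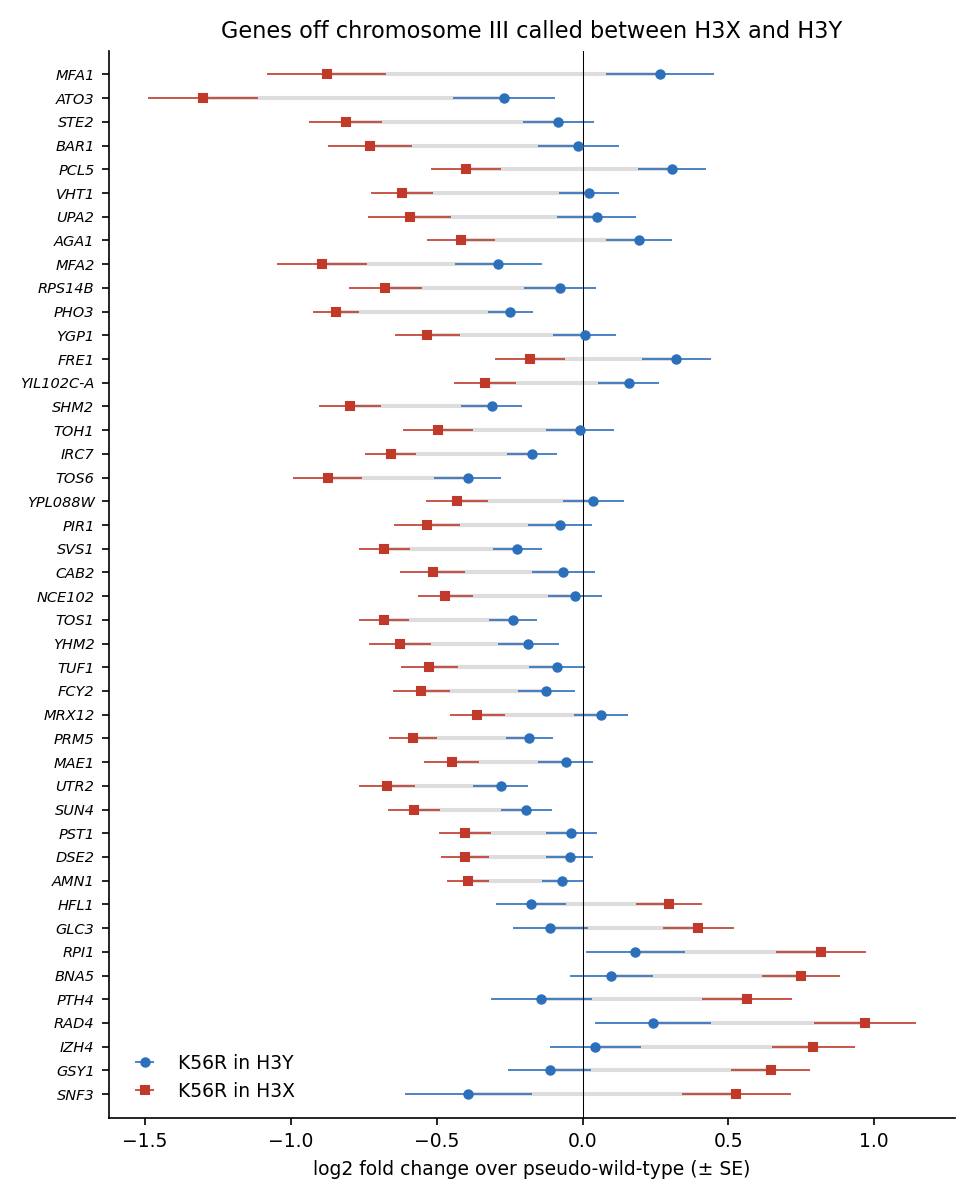
Log2 fold change over the 6 pseudo-wild-type libraries, with SE, of the 44 genes off chromosome III called between the strains, for K56R H3Y (blue circles) and K56R H3X (red squares), ordered by the difference. The red squares lie further from 0 for all of them except FRE1, whose values are -0.18 and 0.32.

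The full-length libraries, 2 of each strain in sequencing batches 4 and 7, were made with another protocol and did not choose the 44 genes. They had 18 calls off chromosome III of 6201 genes tested (0.29%), 13 higher (0.21%) and 5 lower (0.0806%) in K56R H3X. An unadjusted full-length p under 0.05 held for 8.48% of the genes tested in both assays. Of the 44 genes, 38 had the same sign there, or 31 of the 35 lower and 7 of the 9 higher, beside 48.5% of the 4835 genes tested in both assays. Same sign with an unadjusted full-length p under 0.05 held for 11 of the 44, beside 5.5% of the 4835, and 0 had the opposite sign at that p. STE2, BAR1 and BNA5 were called in both. STE2 had 217.4 and 270.6 CPM in full-length K56R H3X and 735.2 and 541.4 CPM in K56R H3Y, a log2 fold change of -1.40 ± 0.25 (adjusted p 0.000967, edgeR).

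BAR1 was at -0.98 ± 0.23 (adjusted p 0.0163, edgeR) and BNA5 at 1.26 ± 0.31 (adjusted p 0.0258, edgeR) in the full-length libraries. AGA1 was at -0.60 ± 0.28 there, close to its 3′-end value, but did not pass (adjusted p 0.452, edgeR). MFA1, the lowest in the 3′-end libraries, was at 0.22 ± 0.77 and MFA2 at -0.19 ± 0.66, with errors that leave their direction unresolved. Of the 5 full-length lower calls, 4 were of mating genes: besides STE2 and BAR1 these were SST2, the regulator that dampens pheromone signalling, and FAR1, which arrests the cycle. SST2 and FAR1 were named after their values were seen. Other mating genes counted there were not called and lay on both sides of 0. PRM1 was at -0.74, PRM6 at -0.94 and FUS2 at -0.61 (adjusted p 0.365, 0.529 and 0.548, edgeR). FUS3 was at 0.09 and FIG1 at 0.63 (adjusted p 0.876 and 0.573, edgeR). SST2 was at -1.51 ± 0.37 (adjusted p 0.0258, edgeR) and in the 3′-end libraries at -0.44 ± 0.27 (adjusted p 0.634, edgeR), and FAR1, not among the 3′-end features, at -1.33 ± 0.25 (adjusted p 0.00151, edgeR).

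The full-length calls off chromosome III numbered 0 without replicate 1 of either strain, 6 without H3X replicate 2 and 3 without H3Y replicate 2, each a comparison of 1 library with 2 whose spread is borrowed from the other groups. At the level of lists the assays differed. The 129 ribosomal protein genes had a median of -0.06 in the 3′-end and 0.35 in the full-length libraries, the 75 ribosome assembly genes -0.10 and -0.44, and the partners of chromosome III proteins -0.01 and -0.25. The a-specific genes had medians of -0.61 and -0.61, with 6 of 7 below 0 in each. ASG7, also on that list, was counted only in the full-length table, at 0.37 ± 0.46 (adjusted p 0.762, edgeR).

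**Figure D5:**
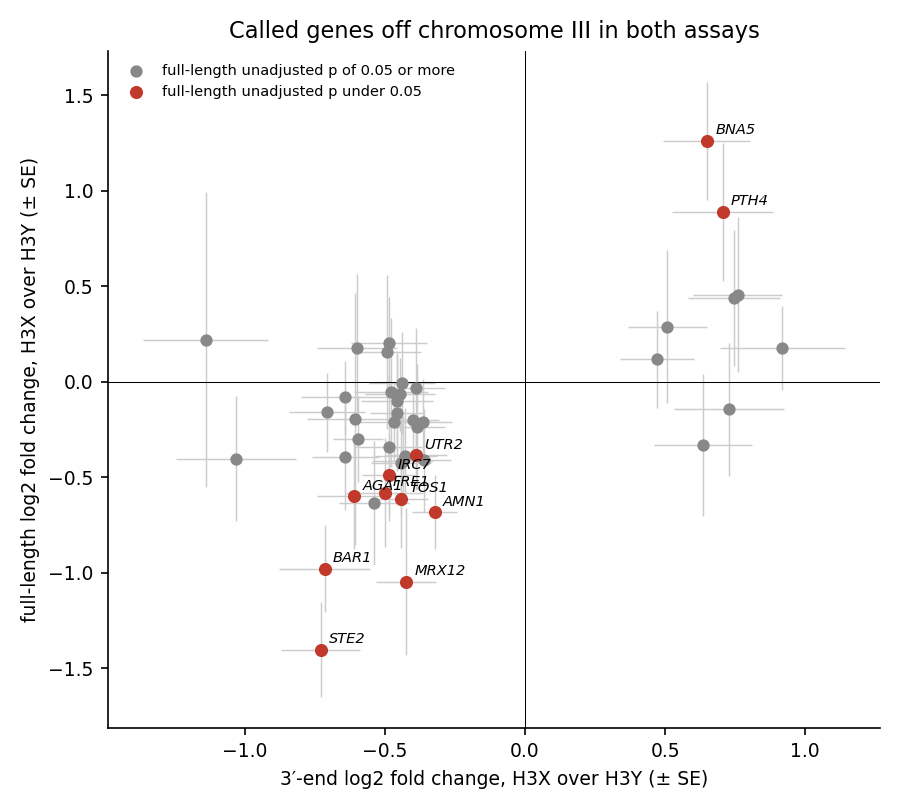
Log2 fold change, K56R H3X over K56R H3Y, with SE, of the 44 called genes off chromosome III in the 3′-end libraries (horizontal, n = 3 each) and in the full-length libraries (vertical, n = 2 each). Of the points, 38 lie in the quadrants where the signs match, and the 11 red ones have an unadjusted full-length p under 0.05.

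The same contrast in the other mutants of the batch asks whether the difference between H3X and H3Y was shared by them. Chromosome III took 1.585% to 1.719% of counts in the K14R and K18R libraries compared, so none of these strains had it raised. The contrast therefore cannot tell K56R in H3X from the raised chromosome III or the isolate. Off chromosome III, K14R H3X against H3Y gave 23 calls (0.475%), 22 higher (0.454%) and 1 lower (0.0207%), and K18R gave 0 (0%). At an unadjusted p under 0.05 (edgeR) there were 460 in K14R and 88 in K18R, beside 436 in K56R. The 44 K56R calls were made with 99 called genes of chromosome III in the same adjustment, and were 13 without that chromosome. The counts of calls therefore do not rank K56R above K14R. The test of the difference itself, K56R less the mean of K14R and K18R, called 35 genes off chromosome III (0.723%), 29 below 0 (0.599%) and 6 above (0.124%), and 20 of the 44 genes passed it. It shares the K56R libraries with the 44 calls. PHO3 differed most firmly, at -0.70 (adjusted p 0.000159, edgeR), with 0.18 in K14R and 0.02 in K18R. STE2 differed by -0.74 (adjusted p 0.0108, edgeR), with -0.11 and 0.12 in the other mutants. MFA1, at -0.96 (adjusted p 0.0529, edgeR), and MFA2, at -0.66 (adjusted p 0.116, edgeR), did not pass. GSY1 did not pass, at 0.27 (adjusted p 0.639, edgeR), and K14R H3X had a value of 0.79 for it.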

How the data were processed

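The authors deposited raw read counts per transcript feature for each library, made with featureCounts 1.4.6-p2 at a minimum mapping quality of 30, per the file headers. 3′-end reads were counted on the same strand with duplicates kept, and no molecular identifiers are named, so counts are not independent molecules. Full-length read pairs were counted on the reverse strand without duplicates. The submitters' processing notes name TopHat2 2.0.12, Bowtie2 and sacCer3, which is R64. Counts were scaled by TMM, filtered by filterByExpr and tested with edgeR 4.0.16 (limma 3.58.1, R 4.3.3) in 1 fit of the 33 batch 11 libraries, or of 98 full-length libraries with batch as a term; DESeq2 1.42.0 was an alternative, and the code was tested on simulated data. Tables were made in Python 3.11.15. The members and gene lists were chosen with earlier results of these data known. Named genes were the 20 lowest and 10 highest called genes that had a symbol and averaged 5 CPM or more, called list members, and all a-specific, α-specific, histone and marker genes, with regulators on chromosome III and up to 3 partners of each; the remaining called genes were named to account for all 44. Promoters ended at features that begin at or before the R64 gene, chromosome X left out. Libraries of 1 group differed beyond counting noise. Same-numbered libraries of the strains correlated in their deviations from the group means at 0.259, 0.185 and 0.506 over 4282 genes. All were above 0.1, the rule by which the replicate numbers were taken to pair them. Other pairs ran from -0.447 to 0.242, so the values for replicates 3 and 4 do not single out same-numbered pairs. The 33 3′-end libraries of another batch were not used here.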

Additional observations from a re-analysis of the deposited data

Results flagged for a closer look

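Among 51 named genes, the H3X against H3Y difference in K56R departed from the mean of K14R and K18R in 16, by the test of that difference (adjusted p under 0.05, edgeR). All 16 are among the 34 named genes called between K56R H3X and H3Y. The test includes that K56R difference from the same libraries, so it is not independent of the naming. Over all tested genes off chromosome III 0.723% passed it. The mating genes were STE2 at -0.74 (adjusted p 0.0108, edgeR), BAR1 at -0.73 (0.0404), AGA1 at -0.77 (0.00401) and PRM5 at -0.46 (0.0166). The transporters and metabolic genes were ATO3 at -1.19 (0.00572), VHT1 at -0.74 (0.00217), PCL5 at -0.74 (0.00823), PHO3 at -0.70 (0.000159), SHM2 at -0.55 (0.0314) and RPS14B at -0.64 (0.0377). The surface genes were TOH1 at -0.71 (0.00988), TOS6 at -0.63 (0.0239), SVS1 at -0.53 (0.00726) and SUN4 at -0.47 (0.0279). Above 0 were IZH4 at 0.97 (0.00572) and RAD4 at 1.11 (0.00647). RAD4 was at -0.43 in K14R and -0.32 in K18R, and IZH4 at -0.16 and -0.28, of opposite sign to K56R. K18R had 0 calls off chromosome III, so its signs are those of uncalled values. Such values enter the difference, which for RAD4 is 1.11 beside 0.73 in K56R alone.

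Pseudo-wild-type replicate 17 stood apart from the other 5 libraries of its group for RAD4, at 12.9 CPM beside 9.40 CPM in the next, and for HHT2, at 5204 CPM beside 4367 CPM. Chance alone marks about 1 group in 20 in this way, and 51 named genes were examined, so marks as few as these are no more than chance gives.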

How the results depend on the processing

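The 44 calls off chromosome III became 17 in the 6 libraries fitted alone, 13 with the adjustment over genes off chrIII only and 15 to 39 leaving out 1 library. With the replicate block they numbered 109 in the 6 libraries and 50 in all 33; DESeq2 gave 64 and scaling from genes off chromosome III 38. The full-length count of 18 became 36 with DESeq2, 340 with the batch as a replicate block in the 4 libraries alone (125 higher, 215 lower) and 0 to 6 leaving out 1 library. The difference from K14R and K18R, 35 genes, became 55 with DESeq2 and 13 to 34 leaving out 1 library. Against the pseudo-wild-type the ranges on leaving out 1 library were 398 to 1139 in K56R H3X and 1 to 315 in K56R H3Y. The count of called a-specific genes, 4, became 2 in the 6 libraries alone or with library slopes on coding length, and 2 to 5 leaving out 1 library. The 6 cell wall calls became 3 with scaling from genes off chromosome III, 0 in the 6 libraries alone, 3 there with the replicate block, 0 with the adjustment off chromosome III and 0 to 4 leaving out 1 library. The cause of these shifts was not tested. Leaving out libraries of the other comparisons, the a-specific and cell wall counts and the chromosome III median were alternatives chosen after seeing the data.

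Over 16 alternatives for each of 34 named called genes, 393 of 544 values stayed past the threshold, 151 did not and 0 changed sign. Of 17 named genes not called, AGA2 passed without H3X replicate 4, and 9 values changed sign. Leaving out 1 library, AXL1 ran from -0.06 to 0.177 (below 0 without H3Y replicate 3 or 5), HHT2 from -0.218 to 0.10 (above 0 without H3X replicate 4 or H3Y replicate 5), HHF2 from -0.137 to 0.073 (above 0 without replicate 4 of either strain) and HHO1 from -0.02 to 0.202 (below 0 without H3Y replicate 4). With library slopes on coding length AXL1 was at -0.013 and HHF2 at 0.004. The chromosome III median ran from 0.855 to 0.899.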
